A study of Drosophila melanogaster with 13 samples.

Results

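The 7 opsin genes of *Drosophila melanogaster* (ninaE, Rh2, Rh3, Rh4, Rh5, Rh6 and Rh7) were matched by FlyBase symbol among 17370 counted genes of an mRNA sequencing study of adult fly heads. Flies of 3 isofemale lines, SD2, SD3 and SD6, each founded from a wild-caught female and not defined further, were reared from the first larval instar on LPS food (protein over carbohydrate 0.1) or on HPS food (protein over carbohydrate 0.43). Heads of males and females were dissected 2 to 6 h after eclosion, and each of the 12 combinations of sex, diet and line was 1 pool of 70 to 80 heads. A combination therefore had no replicate of its own, and male and LPS heads were each set against female and HPS heads as 6 matched pairs. Males of SD2 on LPS had 2 libraries from 1 RNA, and these were summed, so 13 libraries gave 12 samples. Each library held 7.84 to 25.3 M reads assigned to genes.

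An opsin is the protein part of a rhodopsin, a G-protein-coupled receptor that binds a retinal-type chromophore and absorbs light. Each unit of the compound eye holds outer photoreceptors R1 to R6, which use the opsin Rh1 encoded by ninaE, and the inner photoreceptors R7 and R8, which serve color vision. In so-called pale units R7 carries Rh3 and R8 carries Rh5, and in yellow units R7 carries Rh4 and R8 carries Rh6. Both Rh3 and Rh4 absorb ultraviolet light, Rh5 blue light and Rh6 green light. Rh2 is the opsin of the ocelli, the simple eyes on top of the head, and Rh3 is also made in both R7 and R8 of the dorsal rim. Rh7 is known from the brain, where it acts in light input to the circadian clock.

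ninaE (FBgn0002940), Rh2 (FBgn0003248), Rh3 (FBgn0003249) and Rh6 (FBgn0019940) are on chromosome arm 3R. Rh4 (FBgn0003250) and Rh7 (FBgn0036260) are on 3L, and Rh5 (FBgn0014019) is on 2L. In the Ensembl BDGP6 annotation exons added up to 1349 to 1588 bases in 6 of the genes and to 4014 bases in Rh7. No exon of the 7 genes shared a base with an exon of another gene there. The bounds of Rh4 overlap those of 3 genes on the opposite strand (sina, sinah and CG13029), and the libraries were stranded.

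The libraries labelled male LPS SD3 and male LPS SD6 went against their strain labels. Over 10026 genes, the deviations from the group mean in the library labelled SD3 correlated at 0.752 to 0.767 with those of the 3 other SD6 samples and at -0.343 to -0.269 with those of the 3 other SD3 samples. The library labelled SD6 correlated at 0.641 to 0.725 with the 3 other SD3 samples and at -0.363 to -0.293 with the 3 other SD6 samples. Strain, sex and diet results are therefore given as labelled, then leaving both out, then after swapping the strain names between them (called exchanged labels). The exchange was chosen from the counts of all genes in these libraries, the opsins included. The male HPS SD2 library and the second male LPS SD2 library carry another sequencing run label (the second run) than the other 11 (the first run). The second run held SD2 males only.

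All 7 opsins were detected in every sample and passed the filter on low counts. Levels are compared between genes as RPKM, the scaled count (CPM, counts per 1e6 reads) divided by the kilobases of exon, after scaling the libraries by the trimmed mean of M-values (TMM). ninaE was the highest by far, at 14158.3 ± 1828.7 RPKM (mean ± SD over all 12 samples), with a lowest sample of 11541.6, a median of 14100.9 and a highest sample of 17701.2. It held 1.81 to 2.85% of all gene reads and was the gene with most reads in 11 of the 12 samples, ranking second in the female LPS SD6 sample. By itself ninaE made up 84.2 to 88.6% of the summed opsin level per length, with a median of 86.6%.

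The opsins of the inner photoreceptors followed. Rh4 stood at 835.4 ± 155.3 RPKM and Rh3 at 770.9 ± 140.2 RPKM (SD, n = 12 each), and these neighbours in the order did not differ beyond their spread: Rh4 was above Rh3 in 6 of 12 samples, with ratios of 0.748 to 2.03. ninaE was 11.3 to 24.2 times as high as Rh4. Rh6 stood at 276.0 ± 59.2 RPKM, below Rh3 in all 12 samples by a ratio of Rh3 to Rh6 of 1.54 to 4.31. Rh5 stood at 151.4 ± 24.0 RPKM and was below Rh6 in 11 of 12 samples. The sum of both R7 opsins was 3.05 to 4.82 times the sum of both R8 opsins, and ninaE was 7.04 to 10.6 times the sum of both R7 opsins.

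Rh2, the opsin of the ocelli, stood at 131.1 ± 12.9 RPKM. It had the smallest spread of the 7 in proportion to its level, and its order against Rh5 was not fixed: Rh5 was above Rh2 in 10 of 12 samples, with ratios of 0.752 to 1.48. Rh7 was lowest, at 5.80 ± 1.02 RPKM, and Rh2 was 17.2 to 34.2 times as high. The lowest Rh7 sample still held 4.04 RPKM. These are whole heads, so fewer cells of a type and less RNA per cell cannot be told apart for any of these genes.

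**Figure D1:**
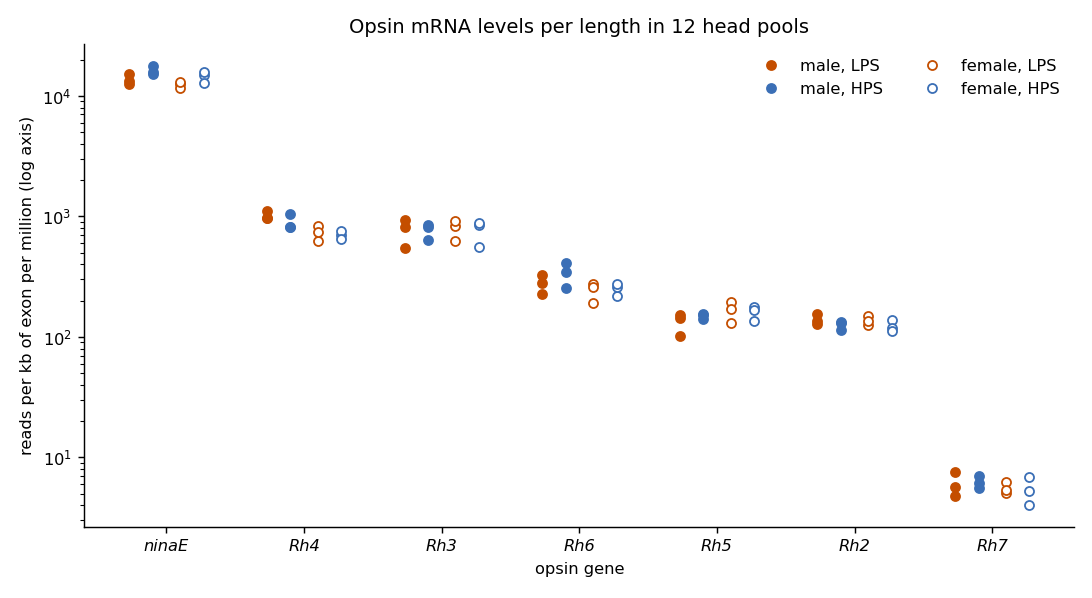
Levels of the 7 opsin genes in 12 head pools, in RPKM on a log axis, 1 point per pool, with males (filled) left of females (open) and LPS left of HPS within each sex. ninaE lies between 11541.6 and 17701.2 in all pools, Rh4 and Rh3 overlap, Rh6 lies above Rh5 and Rh2 in most pools, and Rh7 lies at 4.04 to 7.63.

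Rh4 was higher in male than in female heads, and as labelled it was the only opsin called by sex: 1 of 7, where 305 of 10026 genes tested, or 3.04%, were called (0.868% as higher in males) at an adjusted p below 0.05 by edgeR's quasi-likelihood test with strain and diet in the model. From here, levels of a single gene are given in TMM-scaled CPM. Rh4 had 1105.7, 1307.5 and 1491.1 CPM (lowest, median and highest) in the 6 male samples, against 837.6, 972.5 and 1115.3 CPM in the 6 female samples. The ranges overlap narrowly, and the male sample was the higher in 6 of 6 pairs.

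The log2 fold change of Rh4, male over female, was 0.41 ± 0.082 (SE), with an adjusted p of 0.0229 by edgeR. It was 0.39 ± 0.077 (adjusted p = 0.00774) without the 2 libraries and 0.41 ± 0.065 (adjusted p = 0.0011) with exchanged labels, where 7.72% and 11.2% of all genes were called, 2.8% and 4.3% as higher in males. As labelled, the call depended on which sample was left out: it held at adjusted p of 0.014 to 0.0365 by edgeR without male LPS SD3, male LPS SD6, male HPS SD6 or female HPS SD2, and was lost at 0.0539 to 0.0721 without any of the other 8 (male HPS SD2 and SD3, female HPS SD3 and SD6, male LPS SD2, and female LPS SD2, SD3 and SD6). Within the first run alone the value was 0.44 with an adjusted p of 0.0551 by edgeR, and 0.43 with 0.00263 under exchanged labels. Without the strain term it was 0.41 with an adjusted p of 0.0515 by edgeR.

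Rh6, the R8 opsin of the same yellow units, had 320.3, 423.4 and 576.0 CPM in males (lowest, median and highest of 6), against 270.9, 362.9 and 387.6 CPM in females. The ranges overlap, with the male sample above the female in 6 of 6 pairs. Its log2 fold change was 0.30 ± 0.072, and the adjusted p of 0.0557 by edgeR missed the threshold as labelled. Rh6 was called higher in males without the 2 libraries (0.35 ± 0.076, adjusted p = 0.0151) and with exchanged labels (0.30, adjusted p = 0.0165). As labelled it was called by DESeq2 (0.30, adjusted p = 0.00248), by limma-voom (0.30, adjusted p = 0.0496), and by edgeR with library totals alone (0.33, adjusted p = 0.0362) or with only the first male LPS SD2 library (0.32, adjusted p = 0.0463). It was not called with only the second of these libraries (0.27, adjusted p = 0.101), nor without the strain term (0.31, adjusted p = 0.363). Leaving out 1 sample as labelled, it was called by edgeR in 1 of 12 cases, without the male LPS SD6 library (0.33, adjusted p = 0.0216). With exchanged labels it was called in 12 of 12 such cases (adjusted p = 0.00425 to 0.0454 by edgeR), in fits chosen after seeing the data. It was called in the first run alone with exchanged labels (0.34, adjusted p = 0.0177), but not in that run as labelled (0.34, adjusted p = 0.0805). The 2 libraries of the same male LPS SD2 RNA differed by a log2 value of -0.29 for Rh6, second over first, against -0.043 for Rh4. For Rh6 the difference between libraries of 1 RNA was about as large as that between the sexes.

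Neither opsin of the pale units was called by sex. Rh3 had 756.9, 1143.4 and 1285.4 CPM in males and 779.1, 1167.4 and 1284.4 CPM in females, and the ranges cover each other. Its log2 fold change was 0.0023 ± 0.15 as labelled and 0.0049 ± 0.069 without the 2 libraries, with an adjusted p of 0.98 or more by edgeR in both. Rh5 had 161.1, 230.9 and 243.0 CPM in males and 203.8, 264.8 and 303.6 CPM in females. Its log2 fold change of -0.20 ± 0.11 (adjusted p = 0.407) was -0.20 ± 0.068 with exchanged labels (adjusted p = 0.0688 by edgeR), with the male lower in 4 of 6 pairs as labelled and in 5 of 6 with exchanged labels.

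ninaE averaged 23704.9 ± 2897.7 CPM in males and 21261.7 ± 2564.1 CPM in females (SD, n = 6 each). Its log2 fold change of 0.16 ± 0.085 was not called (adjusted p = 0.381 by edgeR). Nor were those of Rh2, at 0.027 ± 0.057 (adjusted p = 0.856), and Rh7, at 0.16 ± 0.11 (adjusted p = 0.484).

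**Figure D2:**
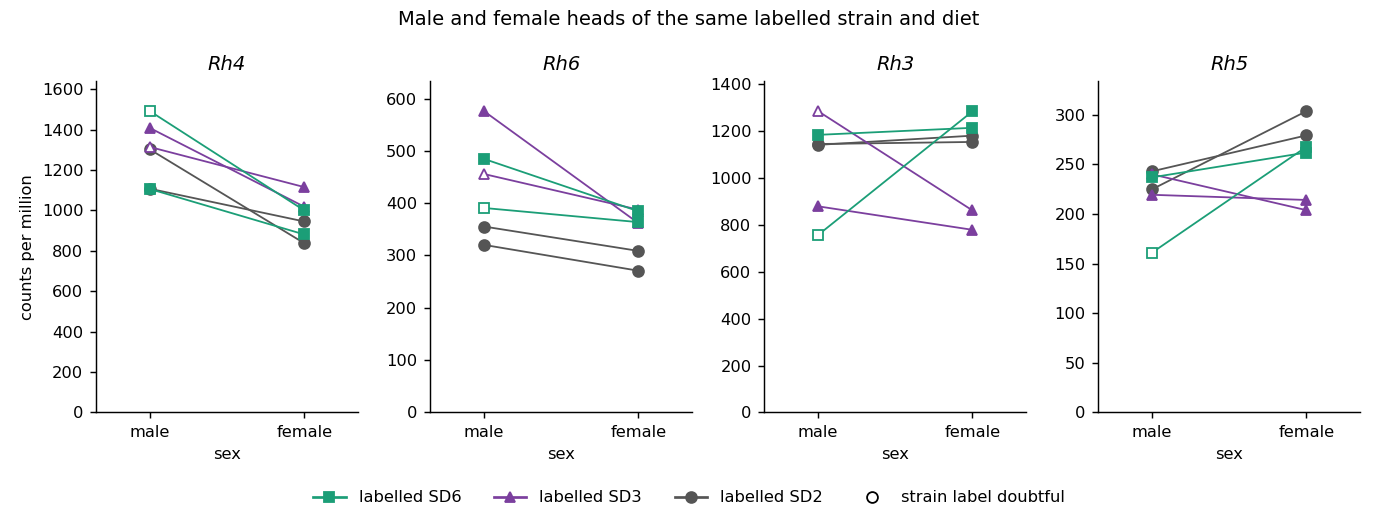
Levels in CPM of Rh4, Rh6, Rh3 and Rh5 in male (left) and female (right) heads, with a line joining the samples of each labelled strain and diet and open symbols for the 2 libraries of doubtful strain label. All 6 lines fall to the right for Rh4 and for Rh6, whereas for Rh3 the lines of the 2 doubtful libraries run in opposite directions.

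Other genes of the eye were read beside these values, in a list of 10 that are used in photoreceptors or in their synapses (chp, eys, prom, crb, Hdc, CarT, Balat, ort, HisCl1 and elav). Not all are particular to photoreceptors: elav is made in all neurons, crb in other epithelia, and ort in the neurons that photoreceptors contact. As labelled all 10 had a positive male over female log2 value with a median of 0.107, against 0.0122 over all genes. Without the 2 libraries 8 of the 10 were positive, with a median of 0.0967 and 2 called, where 7.72% of all genes were called. Of the 10, 0 were called as labelled and 2 with exchanged labels, where 3.04% and 11.2% of all genes were called. The values below are as labelled, beside the same 3.04%. None of the 10 was at 0 reads across all samples, and their summed level was 4779.2 to 8480.0 CPM in males and 5468.1 to 7017.3 CPM in females. Of 8 muscle markers, 8 had negative values with a median of -0.322 and 1 was called, and their summed level was 12805.1 to 17371.1 CPM in males and 14479.9 to 22119.1 CPM in females. Of the 9 eye pigment and lens markers only 5 were positive, with a median of 0.0831 and 1 called. Neuron markers were positive in 7 of 7 with a median of 0.187, and glia markers in 5 of 5 with a median of 0.183. Haemocyte markers were negative in 6 of 6 with a median of -0.424 and 4 called. Fat body markers were positive in 1 of 8, with a median of -0.257 and 1 called. In the other 2 labellings more were called. Without the 2 libraries 7 of 8 muscle and 6 of 8 fat body markers were called lower in males, and 3 of 7 neuron markers higher. With exchanged labels 5 of 8 muscle and 5 of 8 fat body markers were called lower, and 2 of 7 neuron markers higher. Of all genes 7.72% and 11.2% were called by sex in these fits. The part of these shifts in the male level of Rh4 and Rh6 was not tested.

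The phototransduction cascade, which carries the signal from activated rhodopsin to the TRP channels, is fixed here as 28 genes. As labelled, 2 of the 28 were higher in males and 0 lower, where 3.04% of all genes were called and 0.868% were called higher. Of the 28, 27 were positive, with a median log2 value of 0.116. Without the 2 libraries 24 of 28 were positive, with a median of 0.0904. stops, which is needed for normal levels of the phospholipase C of the cascade, averaged 145.1 ± 15.3 CPM in males and 118.9 ± 4.93 CPM in females (0.28 ± 0.056, adjusted p = 0.0223 by edgeR). laza, a lipid phosphate phosphatase that acts on phosphatidic acid, averaged 113.4 ± 32.9 CPM in males and 90.3 ± 18.1 CPM in females (0.31 ± 0.067, adjusted p = 0.0361 by edgeR). Both were called without the 2 libraries (7.72% of all genes) and with exchanged labels (11.2%), where rdgB, a phosphatidylinositol transfer protein, was called as well (0.26, adjusted p = 0.0237). As labelled, leaving out 1 sample kept the call of stops in 4 of 12 cases (adjusted p up to 0.0736 by edgeR) and that of laza in 3 of 12 (up to 0.101).

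No gene of the opsin maturation and chromophore list, which covers chaperones, carotenoid uptake and retinoid enzymes, was called by sex as labelled (0 of 11 tested; Xport-A and Xport-B did not pass the filter on low counts). ninaD, a scavenger receptor for carotenoid uptake, was lower in males without the 2 libraries (-0.33 ± 0.094, adjusted p = 0.0487 by edgeR). None of the factors known to set which opsin an inner photoreceptor makes was called either (0 of 18 tested; sens did not pass), although 16 of the 18 were positive, with a median of 0.123. With exchanged labels 2 of the 18 were called as higher in males, where 4.3% of all genes were. These were salr, a spalt factor of R7 and R8 (0.26 ± 0.062, adjusted p = 0.0165 by edgeR), and dve, a repressor of opsin genes in other photoreceptors (0.20 ± 0.06, adjusted p = 0.0426).

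The share of Rh3 in the summed R7 opsins and the share of Rh5 in the summed R8 opsins were taken per length, which removes any factor common to both genes of a pair. The Rh3 share averaged 44.4 ± 7.35% in males and 51.7 ± 7.01% in females (SD, n = 6 each). The Rh5 share averaged 31.9 ± 5.48% in males and 39.8 ± 6.66% in females. As labelled, the male minus female difference was -7.28 points for Rh3 (lower in 5 of 6 pairs, p = 0.125) and -7.94 points for Rh5 (lower in 5 of 6 pairs, p = 0.0625), in two-sided exact permutation tests over 6 pairs whose smallest possible p is 0.0312. Adjusted over the 6 share tests these were 0.25 and 0.188, so neither passed.

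With exchanged labels the same means had the male lower in 6 of 6 pairs for both shares, with an exact permutation p of 0.0312 and an adjusted p of 0.0469 each. Without the 2 libraries the differences were -6.77 points for Rh3 and -8.72 points for Rh5, lower in males in 4 of 4 pairs, where the exact test cannot go below 0.125. Within the first run and with exchanged labels they were -7.88 and -8.57 points, in 5 of 5 pairs with an exact p of 0.0625, the smallest it allows. The technical libraries of male LPS SD2 gave Rh3 shares of 45.5 and 46.7% and Rh5 shares of 36.6 and 41.6%.

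**Figure D3:**
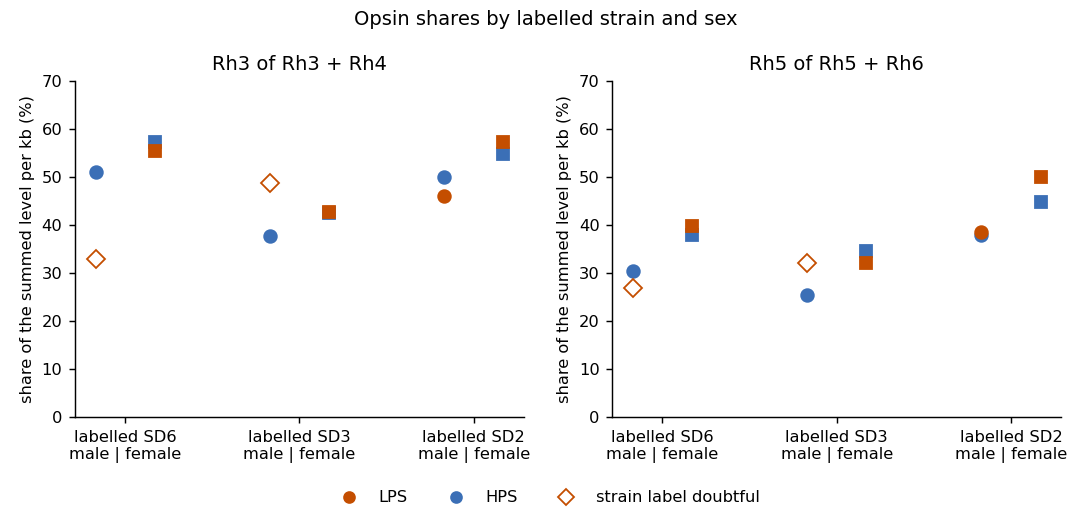
Share of Rh3 in Rh3 plus Rh4 (left) and of Rh5 in Rh5 plus Rh6 (right), in percent of the summed level per kilobase, by labelled strain, with males left of females, 1 symbol per sample colored by diet. The 2 open diamonds are the libraries of doubtful strain label; apart from them, each male share lies below the female shares of its strain.

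By larval diet, 0 of 7 opsins were called as labelled, where 10 of 10026 genes, or 0.0997%, were called by edgeR, and 884 genes had an unadjusted p below 0.05. Likewise 0 of 7 were called without the 2 libraries (1.42% of all genes) and with exchanged labels (1.7%). DESeq2 called 1 of 7, ninaE, among 111 genes.

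ninaE was the opsin with the largest diet value. It had 18328.1, 20238.7 and 23968.6 CPM in LPS heads (lowest, median and highest of 6), against 20152.4, 24517.7 and 28109.4 CPM in HPS heads. The groups overlap, and the LPS sample was the lower in 6 of 6 pairs, with pair differences of -0.50 to -0.063 on the log2 scale. The log2 fold change, LPS over HPS, was -0.23 ± 0.085, with an unadjusted p of 0.0186 and an adjusted p of 0.469 by edgeR. It was -0.24 with an adjusted p of 0.0285 by DESeq2, -0.19 ± 0.087 (adjusted p = 0.349) without the 2 libraries and -0.24 ± 0.08 (adjusted p = 0.164) with exchanged labels. The values within each sex were close, at -0.24 ± 0.12 in males and -0.23 ± 0.12 in females, and the interaction of diet and sex was -0.015 ± 0.18 (adjusted p = 1 by edgeR).

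Rh2 lay on the other side. It had 172.5, 185.1 and 209.9 CPM in LPS heads and 153.9, 168.3 and 188.8 CPM in HPS heads, with overlapping ranges and the LPS sample higher in 5 of 6 pairs as labelled and 6 of 6 with exchanged labels. Its log2 fold change was 0.16 ± 0.057 (unadjusted p = 0.0173, adjusted p = 0.457 by edgeR). The 2 libraries of the male LPS SD2 RNA differed by more than this for Rh2, at -0.29, second over first. Rh6 had a log2 fold change of -0.16 ± 0.072 (adjusted p = 0.555) and was lower on LPS in 5 of 6 pairs, with -0.27 ± 0.097 in males and -0.061 ± 0.097 in females.

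The other 4 opsins had diet values of 0.12 ± 0.082 (Rh4), 0.042 ± 0.15 (Rh3), 0.0051 ± 0.11 (Rh7) and -0.062 ± 0.11 (Rh5). Within one sex edgeR called 0 of 7 opsins by diet as labelled and with exchanged labels, and in females without the 2 libraries. Leaving these out keeps only the SD2 pool of male LPS heads, so calls in males are not given for that fit. As labelled 0 genes were called in males and 0 in females (581 and 420 with an unadjusted p below 0.05). With exchanged labels 0.12% and 0.279% of genes were called. In females without the 2 libraries 0.521% were called. No opsin passed in the diet by sex interaction, where 0 genes were called and 180 had an unadjusted p below 0.05, against 0 called by DESeq2. The Rh3 share averaged 47.2 ± 8.86% on LPS and 48.9 ± 7.40% on HPS, a mean pair difference of -1.67 points (two-sided exact permutation p = 0.688). The Rh5 share averaged 36.6 ± 8.13% on LPS and 35.2 ± 6.70% on HPS, a mean pair difference of 1.39 points (exact p = 0.469).

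**Figure D4:**
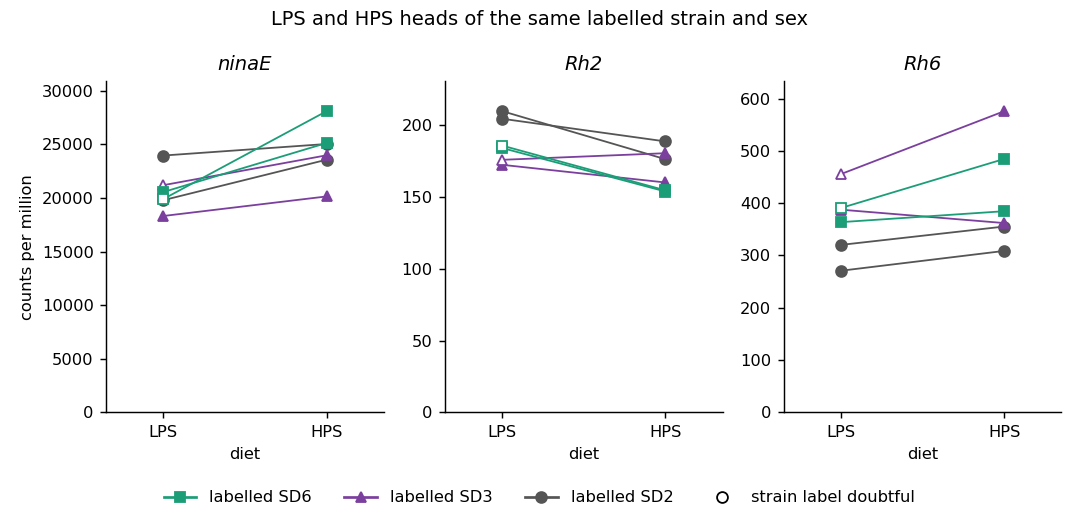
Levels in CPM of ninaE, Rh2 and Rh6 in LPS (left) and HPS (right) heads, with a line joining the samples of each labelled strain and sex and open symbols for the 2 libraries of doubtful strain label. All 6 ninaE lines and 5 of 6 Rh6 lines climb to the right, and 5 of 6 Rh2 lines fall.

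Beside ninaE, 8 of the 10 genes of the photoreceptor and synapse list had a negative LPS over HPS value, with a median of -0.0838 against 0.00916 over all genes, and 0 were called. Their summed level was 4779.2 to 7286.8 CPM on LPS and 5859.2 to 8480.0 CPM on HPS. Of the 9 eye pigment and lens markers 8 were negative, with a median of -0.172 and 0 called. Muscle markers were negative in 8 of 8, with a median of -0.211 and 0 called as labelled and 5 called lower without the 2 libraries, where 1.42% of all genes were called. Neuron markers were positive in 7 of 7, with a median of 0.118, and glia markers in 4 of 5, with a median of 0.107. The part of these lists in the ninaE value was not tested.

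In the cascade 0 of 28 genes were called by diet as labelled, with 16 positive and a median of 0.0275. Cds, a CDP-diacylglycerol synthase that serves the recycling of phosphoinositides, was called with exchanged labels, as were 1.7% of all genes (0.26 ± 0.059, adjusted p = 0.046 by edgeR), averaging 616.4 ± 94.1 CPM on LPS and 515.0 ± 61.2 CPM on HPS. In the maturation and chromophore list 0 of 11 were called as labelled, with 3 positive. ninaG, an oxidoreductase needed to make the 3-hydroxy chromophore, averaged 128.4 ± 48.9 CPM on LPS and 178.8 ± 56.0 CPM on HPS. Its log2 fold change of -0.50 ± 0.088 had an adjusted p of 0.0927 as labelled, and it was called without the 2 libraries (-0.51, adjusted p = 0.0238) and with exchanged labels (-0.50, adjusted p = 0.00595 by edgeR). ninaB, which cleaves and isomerizes carotenoids into the retinoid chromophore, was called only in the fit with exchanged labels of these 3 fits (-0.25, adjusted p = 0.0487 by edgeR), with 309.5 ± 43.4 CPM on LPS and 366.0 ± 42.4 CPM on HPS. None of the 18 opsin choice factors was called by diet in either labelling.

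How many opsins were called by strain depends on the 2 libraries. As labelled only Rh6 was called over all strain terms (adjusted p = 0.0128 by edgeR), 1 of 7 opsins where 9.2% of all genes were called. Without the 2 libraries Rh3, Rh5, Rh6 and Rh7 were called, 4 of 7 where 35.1% of genes were called. With exchanged labels 6 of 7 were called, all but ninaE, where 45.7% of genes were called.

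Rh6 was lowest in SD2. It had 363.8, 384.7 and 484.7 CPM in 3 SD6 samples and 390.9 CPM in the doubtful one of that label. It had 362.0, 387.6 and 576.0 CPM in 3 SD3 samples and 455.8 CPM in the doubtful one of that label. The 4 SD2 samples had 270.9, 308.8, 320.3 and 355.4 CPM, below all 8 others in either labelling. As labelled the log2 fold change of Rh6 was 0.49 ± 0.088 for SD3 over SD2 (adjusted p = 0.00646) and 0.37 ± 0.088 for SD6 over SD2 (adjusted p = 0.0241 by edgeR). Of all genes 9.81% and 10% were called in these contrasts.

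Rh6 kept both calls without the 2 libraries (0.51 and 0.42) and with exchanged labels (0.44 and 0.43). For SD6 over SD2 as labelled, the adjusted p was 0.0554 to 0.0891 by edgeR when any 1 of the SD2 samples, male HPS SD6, female HPS SD6 or female LPS SD6 was left out. Within the first run as labelled it was 0.119 for SD6 over SD2 and 0.0438 for SD3 over SD2. The male LPS SD2 RNA gave Rh6 at 365.7 CPM, here scaled by total gene reads only, in its first-run library and 299.7 in its second-run library.

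Rh3 was lowest in SD3, apart from the library labelled male LPS SD3. It had 1184.3, 1214.3 and 1284.4 CPM in 3 SD6 samples and 756.9 CPM in the doubtful sample of that label. It had 779.1, 862.0 and 879.3 CPM in 3 SD3 samples and 1285.4 CPM in the doubtful sample of that label. The 4 SD2 samples had 1141.6 to 1180.8 CPM. The doubtful sample labelled SD6 thus lies below all 3 of these SD3 samples, and the one labelled SD3 above all 3 of these SD6 samples. As labelled Rh3 was not called in any contrast of strains. Without the 2 libraries it was lower in SD3 than in SD2 (-0.45 ± 0.079, adjusted p = 0.00115) and higher in SD6 than in SD3 (0.55 ± 0.082, adjusted p = 0.00049 by edgeR), where 23.2% and 20.2% of all genes were called. SD6 over SD2 was 0.094 ± 0.079 (adjusted p = 0.442).

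Rh5, like Rh3, was lower in SD3 than in SD2 without the 2 libraries. It then averaged 255.5 ± 16.4 CPM in SD6 (n = 3), 212.4 ± 7.93 CPM in SD3 (n = 3) and 262.7 ± 35.4 CPM in SD2 (n = 4), and the SD3 over SD2 value was -0.33 ± 0.087 (adjusted p = 0.0133 by edgeR). The library labelled male LPS SD6 had 161.1 CPM, the lowest Rh5 of all 12 samples. Rh7 was highest in SD3: it averaged 22.4 ± 1.83 CPM in SD6, 26.9 ± 1.66 CPM in SD3 and 19.5 ± 2.56 CPM in SD2, with SD3 over SD2 at 0.50 ± 0.10 (adjusted p = 0.00366 by edgeR). As labelled both were short of the threshold (Rh5 adjusted p = 0.299, Rh7 adjusted p = 0.0737), and Rh7 passed it when either doubtful library alone was left out (0.0156 without the one labelled SD3 and 0.0234 without the one labelled SD6).

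Rh4 and Rh2 were called with exchanged labels only, of the 3 labellings. Rh4 was then higher in SD3 than in SD2 (0.26 ± 0.079, adjusted p = 0.022) and lower in SD6 than in SD3 (-0.22, adjusted p = 0.0456 by edgeR). Rh2 was lower in SD6 than in SD2 (-0.22 ± 0.063, adjusted p = 0.0178), where 27.1% of all genes were called. In SD6 over SD3 with exchanged labels 30.3% of all genes were called. ninaE was called in none of the 3 labellings, with SD3 over SD2 values of -0.17 to -0.14 and SD6 over SD3 values of 0.16 to 0.24. As labelled 0 of 10026 genes were called between SD6 and SD3, 504 had an unadjusted p below 0.05, and DESeq2 called 3.

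**Figure D5:**
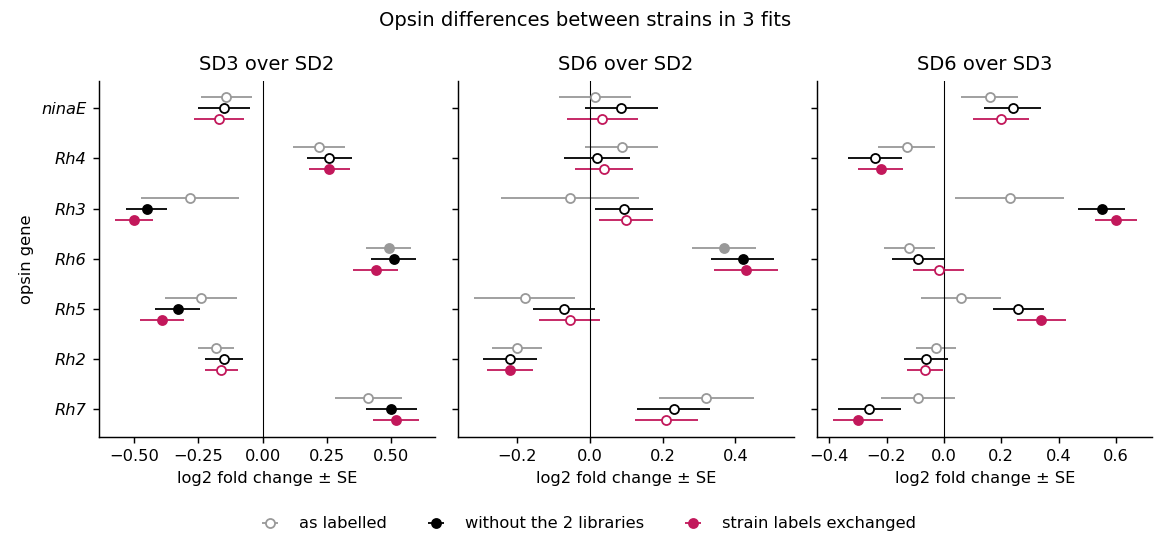
Log2 fold changes ± SE of the 7 opsins for SD3 over SD2, SD6 over SD2 and SD6 over SD3, fitted as labelled (grey), without the 2 libraries of doubtful strain label (black) and with their strain labels exchanged (magenta); filled points have an adjusted p below 0.05. As labelled only Rh6 is filled, and Rh3 in the other fits lies at -0.45 and -0.50 for SD3 over SD2 and at 0.55 and 0.60 for SD6 over SD3.

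The pair shares were also compared between lines. The permutation p-values rest on the sum of squares between lines, after the mean of each group of sex and diet was subtracted. The ranges printed beside them are between raw line means. Without the 2 libraries these means also carry the uneven numbers of males and females. Without the 2 libraries the Rh3 share averaged 54.5 ± 3.23% in SD6 (n = 3), 41.1 ± 2.89% in SD3 (n = 3) and 52.0 ± 4.97% in SD2 (n = 4). The range between line means was 13.5 points (exact permutation of strain within groups of sex and diet, p = 0.0278, adjusted over 6 share tests 0.111), against 9.04 points as labelled (p = 0.338) and 14.0 points with exchanged labels (p = 0.0139, adjusted 0.0417). The Rh5 share averaged 36.0 ± 4.91% in SD6, 30.7 ± 4.74% in SD3 and 42.8 ± 5.71% in SD2. Its range was 12.2 points without the 2 libraries (exact permutation p = 0.037, adjusted 0.111), 11.8 points as labelled (p = 0.0185, adjusted 0.111) and 13.1 points with exchanged labels (p = 0.00463, adjusted 0.0278). The Rh3 share was thus lowest in SD3, and the Rh5 share was highest in SD2, in each of the 3 labellings.

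Of the photoreceptor and synapse list 3 of 10 genes were called by strain as labelled, where 9.2% of all genes were called, and 7 with exchanged labels, where 45.7% were. Their summed level, with exchanged labels, was 6487.6 to 7443.1 CPM in SD6, 6497.6 to 8480.0 CPM in SD3 and 4779.2 to 5960.5 CPM in SD2, so SD2 did not overlap the others. With exchanged labels the mean CPM of Rh6 (313.8), Rh7 (19.5) and Rh4 (1047.8) was also lowest in SD2. Those of ninaE, Rh2, Rh3 and Rh5 were not lowest there. Without the 2 libraries the mean CPM of Rh4 was lower in SD6 (995.5) than in SD2, in lines then unlike in their proportion of males. With sex in the model, the SD6 over SD2 value of Rh4 was negative in 2 of 37 alternative fits, both with exchanged labels. That value was thus not negative without the 2 libraries. The part of the shift of this list in the opsin values was not tested.

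In the cascade 6 of 28 genes were called by strain as labelled, where 9.2% of all genes were: laza, inaF-B, trpl, ninaC, Cds and Arr1. Each averaged least in SD2. trpl, a light-gated cation channel subunit, averaged 1266.8 CPM in SD6, 1652.0 CPM in SD3 and 803.5 CPM in SD2, with an adjusted p of 0.00805 by edgeR. ninaC, a myosin kinase of the photoreceptor, averaged 5200.8, 5318.8 and 3970.3 CPM in the same order (adjusted p = 0.0255), and Arr1, an arrestin that binds activated rhodopsin, 4791.8, 4859.7 and 3943.9 CPM (adjusted p = 0.0491). Of the 28, 11 were called without the 2 libraries (35.1% of all genes) and 18 with exchanged labels (45.7%).

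In the maturation and chromophore list 3 of 11 were called as labelled, against the same 9.2%. ninaG averaged 122.7 CPM in SD6, 118.6 CPM in SD3 and 219.5 CPM in SD2 (adjusted p = 0.000633 by edgeR). ninaB averaged 299.4, 329.5 and 384.2 CPM in the same order (adjusted p = 0.025), and Rdh1, a retinol dehydrogenase, 16.9, 13.2 and 11 CPM (adjusted p = 0.0254). Of the 18 opsin choice factors 1 was called as labelled, where 9.2% of all genes were called. It was wts, the kinase of the Hippo pathway known in R8 to favor Rh6 over Rh5, which averaged 79.2 CPM in SD6, 81.0 CPM in SD3 and 118.2 CPM in SD2 (adjusted p = 0.000325 by edgeR). With exchanged labels 8 of the 18 were called, where 45.7% of all genes were. Among them was melt, which acts against wts in R8 (adjusted p = 0.0277 by edgeR). Under those labels melt averaged 44.6 CPM in SD6, 52.1 CPM in SD3 and 41.6 CPM in SD2. SD2 thus had the most wts and the least melt of the 3 lines. It also had the lowest Rh6 and the highest Rh5 share, which is the opposite order to the known direction, in which wts favors Rh6. A link between these values was not tested. wts is expressed in many tissues of the head, and these counts are from whole heads.

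Over the 12 samples Rh3 and Rh5, the pale pair, correlated at r = 0.789, and Rh4 and Rh6, the yellow pair, at r = 0.588. Rh7, which is in neither pair, correlated with Rh6 at r = 0.619 and with Rh4 at r = 0.557, so values of this size were not particular to the yellow pair. Rh7 correlated with Rh5 at r = -0.769 and with Rh3 at r = -0.757. Rh4 and Rh5 correlated at r = -0.779, and Rh4 and ninaE at r = -0.00498. These are descriptions over 12 samples that share strains, diets and sexes.

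The genes whose levels followed each opsin most closely over the 12 samples were named by the highest Pearson correlation of log2 CPM, 3 for each. For ninaE these were Culd (r = 0.904), CG5646 (r = 0.889) and CG17746 (r = 0.878). For Rh3 they were CG10428 (r = 0.968), GstO3 (r = 0.961) and Sply (r = 0.96), and for Rh4 asRNA:CR44841 (r = 0.911, at most 2.54 CPM), Arl8 (r = 0.893) and CG13760 (r = 0.891). For Rh5 they were Pld3 (r = 0.968), CG15390 (r = 0.952) and EMC1 (r = 0.948), and for Rh6 laza (r = 0.965), SerT (r = 0.949) and qtc (r = 0.947). Culd is known to take part in the traffic of rhodopsin, and EMC1 is a subunit of the membrane complex needed to make several rhodopsins. For Rh2 they were cag (r = 0.845), fz2 (r = 0.836) and Gs1 (r = 0.831), and for Rh7 IA-2 (r = 0.949), sinu (r = 0.945) and Mctp (r = 0.929). They were picked as the highest over all genes compared and share samples with the opsins, so no test goes with them.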

How the data were processed

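Gene-level read counts, 1 table per library, were made and deposited by the authors as raw counts. The submitters' processing notes name HTSeq 0.6.1p1 and TopHat2 2.1.0, besides CASAVA 1.8.2 and bcl2fastq 1.8. Genome build and annotation were not given in the sources used here. Libraries came from a stranded polyA kit, per the labels' protocols. Spike-in rows (96) and 5 summary rows were left out of totals; reads in no gene were 2.93 to 4.96% of a first-run library and 10.4 to 14.9% of a second-run library. The 2 male LPS SD2 libraries were summed.

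Genes were kept by filterByExpr (minimum count 10), scaled by TMM and tested with edgeR 4.0.16 (R 4.3.3) in a model of strain, sex and diet with 7 residual degrees of freedom. P-values were adjusted by Benjamini-Hochberg over all 10026 genes, with a threshold of 0.05. Shares were tested with two-sided exact permutations. DESeq2 1.42.0, limma 3.58.1, other scalings, no filter, no strain term, single runs and leaving out each sample were alternatives. Exon lengths and chromosome arms came from Ensembl BDGP6, so levels per length rest on that annotation.

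Strain numbers were treated as pairing samples across groups because same-numbered samples are the same isofemale line. Deviations from group means correlated at 0.617 to 0.809 in 12 same-numbered pairs and at -0.363 to -0.269 in the 6 pairs with a doubtful library. Pools are 1 per combination, so the model of strain, sex and diet cannot separate spread between pools from interactions of these factors. The p-values rest on both together. The 6 pairs of the exact tests by sex and diet come from only 3 lines and were treated as independent. Named genes are the 7 opsins, called genes of the lists, and the 3 genes most alike to each opsin. The members and lists were chosen with earlier results of these data known.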

Additional observations from a re-analysis of the deposited data

Results flagged for a closer look

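The male LPS library labelled SD6 had 161.1 CPM of Rh5, far below the other 5 male samples, which had 219.3 to 243.0 CPM. Of 63 groups of opsin values examined in this way 1 stood out, and chance flags about 1 in 20. This library is 1 of the 2 whose strain label is in doubt.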

How the results depend on the processing

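Exchanged labels combined with the first run, with library totals alone or with a sample left out were chosen after seeing the data. Ranges for 1 sample left out are given as labelled and then for exchanged labels. Counts of genes called by diet (10 as labelled) were 111 with DESeq2, 18 with limma-voom, 0 without the strain term (no replicate block), 147 without the 2 doubtful libraries, 170 with exchanged labels, 0 in the first run alone, 0 with both sexes summed, 117 exchanged in the first run and 159 exchanged with library totals. With 1 sample left out they were 0 to 83 as labelled and 73 to 199 exchanged. By sex (305) they were 601 with DESeq2, 153 with no replicate block, 801 without the 2 libraries, 1127 exchanged, 118 in the first run, 717 exchanged in the first run and 1275 exchanged with library totals, and 140 to 559 as labelled and 741 to 1060 exchanged with 1 sample left out. By strain (922) they were 1479 with DESeq2, 3645 without the 2 libraries, 4580 exchanged, 407 in the first run, 4026 exchanged in the first run and 4783 exchanged with library totals, and 394 to 2281 as labelled and 3860 to 4515 exchanged with 1 sample left out. For SD3 over SD2 (984) they were 2408 without the 2 libraries, 3082 exchanged, 512 in the first run, 2611 exchanged in the first run and 3336 exchanged with library totals, and 482 to 1770 as labelled and 2259 to 3008 exchanged with 1 sample left out. For SD6 over SD2 (1004) the same settings gave 2319, 2713, 566, 2070 and 2889, and 521 to 1712 as labelled and 2074 to 3031 exchanged with 1 sample left out. For SD6 over SD3 (0) they were 3 with DESeq2, 2095 without the 2 libraries, 3040 exchanged, 2968 exchanged in the first run and 3010 exchanged with library totals, and 0 to 137 as labelled and 2264 to 3004 exchanged with 1 sample left out. The interaction gave 0 to 0 as labelled and 0 to 1 exchanged with 1 sample left out.

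Without the strain block that pairs the samples, Rh4 by sex was 0.41 (adjusted p = 0.0515 by edgeR) and Rh6 0.31 (adjusted p = 0.363), so the sex call of Rh4 was lost; the cause was not tested.

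Signs of small opsin values turned as follows. ninaE, SD6 over SD2, was -0.0036 with upper-quartile factors, -0.043 with library totals, -0.04 in the first run, -0.0018 with the first male LPS SD2 library alone, -0.02 exchanged in the first run and -0.012 exchanged with library totals, and with 1 sample left out -0.021 to 0.088 as labelled and 0.0026 to 0.082 exchanged. Rh3 by sex was -0.0071 with no filter, -0.018 with limma-voom, -0.018 with no replicate block, -0.017 exchanged and -0.015 exchanged in the first run, and with 1 sample left out -0.14 to 0.14 as labelled and -0.053 to 0.013 exchanged. Rh3, SD6 over SD2, was 0.094 without the 2 libraries, 0.10 exchanged, 0.10 exchanged in the first run and 0.058 exchanged with library totals, and with 1 sample left out -0.15 to 0.13 as labelled and 0.082 to 0.12 exchanged. Rh7 by diet was -0.006 with limma-voom, -0.00085 with no replicate block, -2.3e-05 exchanged and -0.034 with both sexes summed, and with 1 sample left out -0.072 to 0.077 as labelled and -0.05 to 0.034 exchanged. Rh2 by sex was -0.0031 with the second male LPS SD2 library alone, and with 1 sample left out -0.012 to 0.048 as labelled and -0.0067 to 0.049 exchanged. With 1 sample left out, as labelled, Rh3 by diet was -0.10 to 0.17 (-0.0027 to 0.053 exchanged), Rh5 by diet -0.15 to 0.032 (-0.12 to -0.013 exchanged), Rh2 for SD6 over SD3 -0.056 to 0.032 (-0.10 to -0.016 exchanged) and Rh5 for SD6 over SD3 -0.016 to 0.20 (0.27 to 0.43 exchanged). In 3 cases leaving out 1 sample turned the sign only when labels were exchanged too. These were Rh4 for SD6 over SD2 (0.0088 to 0.15 as labelled, -0.026 to 0.098 exchanged, and -0.0081 exchanged with library totals), Rh5 for SD6 over SD2 (-0.26 to -0.049 as labelled, -0.09 to 0.013 exchanged) and Rh6 for SD6 over SD3 (-0.21 to -0.049 as labelled, -0.09 to 0.083 exchanged, and 0.0047 exchanged with library totals).

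The sex differences of the Rh3 and Rh5 shares, -7.28 and -7.94 points, passed with exchanged labels and all 6 pairs; leaving out 1 sample leaves 5 pairs, whose smallest exact p is 0.0625. The strain range of the Rh3 share was 13.5 points without the 2 libraries, 14.0 exchanged and 14.0 exchanged in the first run, and with 1 sample left out 7.3 to 11.6 as labelled and 12 to 15.5 exchanged. That of the Rh5 share was 12.8 in the first run (exact p = 0.0556), and with 1 sample left out 9.42 to 13.5 as labelled and 10.7 to 14.7 exchanged. The Rh3 share by diet was -4.2 to 1.59 as labelled and -2.49 to -1.06 exchanged with 1 sample left out. Depth limits Rh7 most, the opsin with fewest reads.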
